A study of Homo sapiens with 2 samples.

Results

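This account covers 10 genes of the Hippo signalling output and the CUT&Tag peaks around them: the transcription factor genes TEAD1, TEAD2, TEAD3 and TEAD4, the coactivator genes YAP1 and WWTR1 (which encodes TAZ), the inhibitor gene VGLL4, and the target genes CCN1, CCN2 and AMOTL2. The genes were taken by name from the GENCODE annotation of hg19, and a peak was counted for a gene when its midpoint lay in the gene body or within 50 kb on either side. By this rule the 10 windows held 232 of 173304 peaks in TRPS1-WT cells and 316 of 325573 peaks in TRPS1-MT cells, out of 20136 protein-coding genes annotated. Both samples were HCT116, a human colorectal carcinoma cell line of epithelial origin, transduced with a lentiviral vector that expressed 3 × Flag-tagged full-length TRPS1, either the wild-type protein (TRPS1-WT) or the R544Q mutant (TRPS1-MT), and selected with puromycin. TRPS1 is a GATA-type zinc finger protein known mainly as a transcriptional repressor, and CUT&Tag with a Flag antibody marks the DNA near the tagged protein through a tethered transposase. The tagged protein was expressed on top of whatever TRPS1 the cells make themselves, a Flag profile of cells without the tagged protein was not analysed here, and each condition had 1 library. The values therefore compare 2 libraries and not the conditions, no test between them was possible, and the 95% intervals take in counting error alone.

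In the Hippo pathway, a kinase cascade of MST and LATS proteins phosphorylates YAP and TAZ and holds them in the cytoplasm. When the cascade is off, YAP and TAZ enter the nucleus and bind TEAD factors, which recognise the sequence GGAATG, often at enhancers that also hold AP-1 sites. In intestinal epithelium this output is known for its part in regeneration after injury and in tumour growth.

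The deposited lists gave the position, summit, fold over the local background and −log10 p of each peak. The number of tags (sequenced fragments) at each summit was worked out from the last pair of values, and so was the local background in tags. Peaks were called shared when a peak of each list overlapped by at least 1 bp, promoter peaks when the midpoint lay from 2 kb before to 1 kb after an annotated transcription start site (TSS), and distal when they lay in the promoter of no gene. The label of an epithelial line was set against marker genes: a peak stood at the canonical TSS in both lists for 4 of 8 epithelial colon genes (EPCAM, KRT8, CDX2 and CLDN4) and for 0 of 7 annotated genes of immune, stromal and other cells.

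The windows were rich in peaks that both libraries shared. Of the TRPS1-WT peaks in the windows, 105 of 232 (45.3%, 39.0 to 51.7%) overlapped a TRPS1-MT peak, against 30.4% of the whole TRPS1-WT list. Of the TRPS1-MT peaks in the windows, 101 of 316 (32.0%, 27.1 to 37.3%) overlapped a TRPS1-WT peak, against 15.8% of the whole TRPS1-MT list. The window peaks were also taller. Their median was 19 tags in the TRPS1-WT and 22 in the TRPS1-MT library, against 14 and 17 in the whole lists, and 12.5% and 15.8% of them reached 100 tags, against 4.96% and 3.66% of the lists. In the whole lists 97.9% of TRPS1-WT peaks with at least 100 tags were shared, so height moved with sharing, and the part of peak height in the higher share was not tested. All 29 TRPS1-WT window peaks with at least 100 tags were shared, as were 45 of the 50 such TRPS1-MT peaks.

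At the 20 window edges of the 10 genes, the nearest peak inside had a median of 16.5 tags in the TRPS1-WT and 22 in the TRPS1-MT library. The nearest peak outside had 18 and 22. Its median distance from the edge was 7642 and 3803 bp, against 5600 and 3703 bp inside. With lists this long a nearest peak is found at any edge, so these values cannot show where peaks end.

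Peak density differed widely among the 10 genes. In peaks per 100 kb, 8 of the 10 windows exceeded the median of all genes in the TRPS1-WT list and 7 in the TRPS1-MT list. The 90th percentile of all genes was exceeded by 3 windows in the TRPS1-WT list and by 0 in the TRPS1-MT list. By all TRPS1-MT peaks, the CCN1 window lay above 55.4% of genes. The median over the genes was 11.0 peaks per 100 kb of window in the TRPS1-WT and 16.8 in the TRPS1-MT library, against 8.22 and 14.8 over all protein-coding genes. The excess was clearest in shared distal peaks, with a median of 3.31 per 100 kb against 1.25 over all genes. CCN1 had 8.67 shared distal peaks per 100 kb, more than 99.9% of all genes. AMOTL2 had 6.66 and WWTR1 6.57, above 99.4% and 99.3% of genes. TEAD1 had 4.32, above 94.8%. By shared distal peaks, these 4 of 10 genes lay above the 90th percentile, where 10.0% of all protein-coding genes lie. TEAD4 was the sparsest, with 0.551 shared distal peaks per 100 kb, and was the 1 gene below the median of all genes.

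Of the 10 genes, 7 had a promoter peak in both lists, against 62.6% of all protein-coding genes. They were TEAD2, TEAD4, YAP1, WWTR1, VGLL4, CCN2 and AMOTL2. CCN1 had a promoter peak in the TRPS1-WT list alone and TEAD1 in the TRPS1-MT list alone, and TEAD3 had none in either. Counting each list by itself gave 8 of 10 genes in both, where 67.5% of all genes had a promoter peak in the TRPS1-WT list and 76.5% in the TRPS1-MT list. At the canonical TSS alone, 6 of 10 genes had a peak in both lists, beside 48.4% of all genes, 7 in the TRPS1-WT list, beside 55.5%, and 6 in the TRPS1-MT list, beside 63.7%. Shares this near the background are no result about these genes.

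The 4 TEAD genes encode DNA-binding partners of YAP and TAZ. TEAD1 (chr11:12695968-12966284, plus strand) carried its peaks inside the gene and not at its start. It had no peak within the promoter window of its canonical TSS in either list, and its only promoter peaks lay at alternative TSSs in the TRPS1-MT list, the strongest with 24 tags. Inside the gene, a peak in intron 2 (chr11:12745335-12746079), 49.7 kb from the TSS, had 413 tags in the TRPS1-WT and 324 in the TRPS1-MT library. Another peak of intron 2 (chr11:12714745-12715636) had 218 and 607 tags, 2.78 times as many in TRPS1-MT cells (2.38 to 3.27). The direction thus turned within 1 intron. Intron 3 held a pair of tall peaks, one with 298 and 265 tags and the other with 289 and 333, and intron 9 held one with 253 and 382. The tallest TRPS1-WT peak is shown because its 201 bases, centred on the summit (chr11:12745433-12745633, plus strand of hg19), hold the TEAD sequence at either side of the summit, starting 62 bases before and 58 bases after it. Capitals mark GGAATG or its reverse complement.

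TEAD1 intron 2 peak: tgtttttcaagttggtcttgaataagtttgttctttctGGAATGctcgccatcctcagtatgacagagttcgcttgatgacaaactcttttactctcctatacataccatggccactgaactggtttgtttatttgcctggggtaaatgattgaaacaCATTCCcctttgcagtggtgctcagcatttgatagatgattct

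TEAD2 (chr19:49843852-49865714, minus strand), the family member known from early development, was the reverse case. Its promoter peak (chr19:49866611-49867250) was the tallest TRPS1-WT peak of all 10 windows. It had 758 tags in the TRPS1-WT and 743 in the TRPS1-MT library. The ratio of 0.980 (0.885 to 1.09) had an interval below the median of 1.33 over all shared pairs. It lay 1.26 kb before the canonical TSS and also within the promoter of DKKL1, so the signal cannot be assigned to either gene. The other peaks around TEAD2 were low: the tallest shared distal peak had 34 tags in the TRPS1-WT and 13 in the TRPS1-MT library.

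TEAD3 (chr6:35441374-35464856, minus strand) had no promoter peak, and no peak of its window passed 42 tags in TRPS1-WT or 69 tags in TRPS1-MT cells. Its tallest shared distal peak lay in the gene, 11.5 kb from the TSS, with 36 and 69 tags. A peak with 54 tags in intron 1, 1693 bp past the TSS and thus just outside the promoter window, was in the TRPS1-MT list alone.

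TEAD4 (chr12:3068496-3149842, plus strand) had its tallest peak at the promoter. It had 102 tags in the TRPS1-WT and 73 in the TRPS1-MT library, and the ratio of 0.716 (0.523 to 0.976) had an interval below the median of 1.33 over all shared pairs. The window held 13 TRPS1-WT and 31 TRPS1-MT peaks, and only 4 TRPS1-WT peaks were shared.

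YAP1 (chr11:101981178-102104155, plus strand) encodes the coactivator YAP. Its tallest peak in both lists (chr11:101982359-101983067) lay 1535 bp past the canonical TSS, within the promoter window of an alternative TSS. It had 317 tags in the TRPS1-WT and 715 in the TRPS1-MT library, 2.26 times as many (1.97 to 2.58). A peak in intron 3 (chr11:102048882-102049433) went the other way in tags, with 316 and 187 and a ratio of 0.592 (0.491 to 0.711). By fold over the local background both peaks were lower in the TRPS1-MT library, with ratios of 0.891 at the alternative TSS and 0.727 in intron 3. The local background went from 14.6 tags in the TRPS1-WT to 38.4 in the TRPS1-MT library at the first, and from 8.4 to 6.66 at the second. At the intron 3 peak the summits lay 2 bp apart in the lists. Beyond the gene, a shared peak 24.2 kb before the TSS had 69 and 165 tags, and one 146 kb past the TSS had 148 and 133.

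WWTR1 (chr3:149235022-149454501, minus strand) encodes TAZ, the paralogue of YAP. It had the most peaks of the 10 windows in TRPS1-WT cells, 48, against 53 in TRPS1-MT cells, and 29 of the 48 (60.4%) were shared. The tallest formed a cluster around intron 2, 76.2 to 81.8 kb past the canonical TSS. The first of them (chr3:149293645-149294430), at an alternative TSS, had 537 tags in the TRPS1-WT and 611 in the TRPS1-MT library. The next (chr3:149297745-149298267) had 537 and 799 tags, and the third (chr3:149299118-149300041) had 399 and 893, a ratio of 2.24 (1.99 to 2.53). The cluster stood on a high local background, 45.8 to 63.9 tags in TRPS1-WT and 101 to 142 in TRPS1-MT cells. A TRPS1-MT peak of 206 tags without a TRPS1-WT partner lay beside it. At the canonical promoter the levels were lower, with 72 and 129 tags. A further tall peak (chr3:149396015-149396677), 20.5 kb before the canonical TSS but inside the annotated gene, had 375 and 642 tags.

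VGLL4 (chr3:11597543-11812824, minus strand) encodes a cofactor that competes with YAP for TEAD. Its canonical promoter had 19 tags in the TRPS1-WT and 55 in the TRPS1-MT library, and the 2 shared promoter peaks at alternative starts were taller. The one at the far upstream start had 141 and 176 tags, a ratio of 1.25 (0.995 to 1.57), and the one at a downstream start had 60 and 174, a ratio of 2.90 (2.15 to 3.96). The tallest peak of the window (chr3:11590002-11590628) had 318 and 376 tags and lay in the neighbouring gene ATG7. The second tallest TRPS1-MT peak of the window (chr3:11660412-11660983), in intron 1 and with 247 tags, had no TRPS1-WT peak under it. Its −log10 p was above that of 99.2% of the TRPS1-MT list, and it was the tallest peak without a partner among the 10 windows. Its 201 bases around the summit (chr3:11660556-11660756, plus strand of hg19) are printed to show what this TRPS1-MT peak covered. They hold the TEAD sequence once, starting 77 bases after the summit and marked in capitals, and neither the AP-1 nor a GATA sequence.

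VGLL4 intron 1 peak: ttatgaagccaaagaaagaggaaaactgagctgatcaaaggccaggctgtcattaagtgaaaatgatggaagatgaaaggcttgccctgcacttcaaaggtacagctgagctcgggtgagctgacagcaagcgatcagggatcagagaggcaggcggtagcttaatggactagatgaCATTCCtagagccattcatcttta

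CCN1 (chr1:86046444-86050272, plus strand) encodes a secreted matricellular protein and is among the standard readouts of YAP activity. It is a short gene, and its tallest peaks lay well outside it. The peak at chr1:86077456-86077990, 31.3 kb past the TSS and between genes, had 592 tags in the TRPS1-WT and 358 in the TRPS1-MT library, a ratio of 0.605 (0.529 to 0.691). The peak at chr1:86072576-86073331, 26.5 kb past the TSS, had 344 and 568 tags, a ratio of 1.65 (1.44 to 1.89). These neighbours, both with a TEAD sequence at the summit, therefore went in opposite directions between the libraries. On the other side of the gene, in the neighbouring gene DDAH1, the TRPS1-MT list had far taller peaks. The shared peak 24.1 kb before the TSS had 17 tags in the TRPS1-WT and 227 in the TRPS1-MT library, a ratio of 13.4 (8.16 to 23.3), the highest of the 105 pairs. A peak of 210 tags beside it was in the TRPS1-MT list alone. The local background there moved as well: at the shared peak it was 2.34 tags in the TRPS1-WT and 19.96 in the TRPS1-MT library.

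The CCN1 promoter peak (chr1:86046203-86046393) had 82 tags in TRPS1-WT cells, 6.24 times the local background of 12.3 tags. No TRPS1-MT peak lay there. The nearest TRPS1-MT peaks were inside and at the end of the gene, with 67, 97 and 191 tags on a local background of 21.6 to 23.9, above the 12.3 tags of the TRPS1-WT promoter peak. An absent peak says only that the caller's threshold was not met. The bases before the CCN1 start (chr1:86046194-86046443, plus strand of hg19) and around the tallest distal summit (chr1:86077622-86077822, plus strand) each hold the TEAD sequence once, marked in capitals, 110 bases before the TSS in the first and 62 bases after the summit in the second.

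CCN1 promoter: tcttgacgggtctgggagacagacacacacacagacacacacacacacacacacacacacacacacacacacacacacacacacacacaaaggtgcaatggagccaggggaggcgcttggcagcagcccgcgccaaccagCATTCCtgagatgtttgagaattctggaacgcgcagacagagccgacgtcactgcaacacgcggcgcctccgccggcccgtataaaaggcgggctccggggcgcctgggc
CCN1 distal peak: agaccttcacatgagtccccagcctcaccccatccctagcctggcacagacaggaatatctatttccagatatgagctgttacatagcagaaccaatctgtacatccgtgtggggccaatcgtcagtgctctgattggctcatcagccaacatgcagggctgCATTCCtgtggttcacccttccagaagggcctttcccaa

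CCN2 (chr6:132269316-132272512, minus strand) encodes connective tissue growth factor, a relative of CCN1 and a widely used YAP target. In contrast to CCN1, its window was sparse, with 8 TRPS1-WT and 11 TRPS1-MT peaks, and the tallest was at the promoter. The promoter peak (chr6:132272478-132272871) had 76 tags in the TRPS1-WT and 101 in the TRPS1-MT library. The ratio of 1.33 (0.977 to 1.81) had an interval that included 1 and the median of 1.33 over all shared pairs. The promoter overlaps that of the non-coding gene LINC01013. Away from the promoter, the tallest shared peak had 25 and 61 tags. The 250 bases before the start (chr6:132272513-132272762, printed on the minus strand in the direction of transcription) lie under the promoter peak and hold the TEAD sequence 3 times, in capitals, starting 169, 104 and 95 bases before the TSS. Of 19856 promoters of the same length, 9.82% hold it at least once and 0.660% at least 2 times.

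CCN2 promoter: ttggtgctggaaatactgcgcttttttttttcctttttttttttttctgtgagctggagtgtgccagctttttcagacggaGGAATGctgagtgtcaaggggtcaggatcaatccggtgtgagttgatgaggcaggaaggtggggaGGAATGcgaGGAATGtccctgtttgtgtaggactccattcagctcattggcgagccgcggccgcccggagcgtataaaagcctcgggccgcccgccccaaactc

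AMOTL2 (chr3:134074189-134094321, minus strand) encodes an angiomotin that binds YAP and is itself a YAP target. It had the highest share of shared peaks, 13 of 16 TRPS1-WT peaks (81.3%), and every one of the 13 had more tags in TRPS1-MT cells. Most shared pairs of the whole lists also did, with a median ratio of 1.33 and a lower quartile of 0.938. Its promoter peak (chr3:134093290-134094333) had 147 tags in the TRPS1-WT and 343 in the TRPS1-MT library, 2.33 times as many (1.92 to 2.85). In intron 5 a shared peak had 86 and 235 tags, a ratio of 2.73 (2.13 to 3.54). Beyond the end of the gene lay a group of tall peaks. At 53.5 kb past the TSS (chr3:134039495-134039996) there were 218 and 251 tags, and at 46.3 kb (chr3:134046419-134047502) there were 217 and 460. The former is printed because its summit held both a TEAD and an AP-1 sequence, as did that of a peak of 25 and 61 tags near CCN2. These were 2 of the 81 shared distal summits of the 10 windows (2.47%, 0.680 to 8.56%). Over all 37428 shared distal summits the share was 4.52%, which lies within that interval. The 201 bases of the AMOTL2 peak (chr3:134039689-134039889, plus strand of hg19) hold the AP-1 sequence 2 times, as TGAGTCA, starting 58 bases before and 9 bases after the summit. They hold the TEAD sequence once, as CATTCC, 72 bases after the summit. All are in capitals. The promoter of AMOTL2 held the TEAD sequence once, 69 bases before the TSS.

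AMOTL2 distal peak: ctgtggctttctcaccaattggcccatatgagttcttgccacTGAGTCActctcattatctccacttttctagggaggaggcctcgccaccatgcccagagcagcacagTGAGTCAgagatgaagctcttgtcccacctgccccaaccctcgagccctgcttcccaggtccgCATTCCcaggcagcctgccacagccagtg

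Across the 105 shared pairs of the windows, the median ratio of tags in TRPS1-MT over TRPS1-WT was 1.51 (quartiles 1.00 and 2.24), against 1.33 (0.938 and 1.95) over all 52620 shared pairs with tags in both. In bulk libraries, a taller peak in each cell and a peak in more of the cells cannot be told apart. The libraries were not scaled to each other, so the median of all pairs is the level to read from. The interval of the ratio lay above 1.33 in 36 pairs (34.3%), where 21.2% of all pairs did so, and below it in 19 pairs (18.1%), where 18.9% did. The genes differed in how their pairs divided. At CCN1 the median ratio was 2.85, with 7 of 9 intervals above 1.33 and 1 below. At AMOTL2 it was 2.10, with 8 of 13 above and 0 below. The windows of TEAD1 (3 above and 4 below of 16), YAP1 (3 and 2 of 8) and VGLL4 (3 and 3 of 14) held both directions. WWTR1 had 9 above and 3 below of 29 pairs. Several pairs shared 1 TRPS1-MT peak, since the 105 TRPS1-WT peaks paired with 100 TRPS1-MT peaks, so pairs of a window are not independent.

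The local background moved with the tags. Its median ratio was 1.65 over the pairs of the windows and 1.60 over all pairs, and at the shared peaks of AMOTL2 the median background was 10.3 tags in the TRPS1-WT and 22.9 in the TRPS1-MT library. Fold over the local background, which takes this out, had a median ratio of 0.946 over the window pairs against 0.926 over all pairs. By fold, the pairs of AMOTL2 had a median ratio of 0.997, TEAD1 0.939, WWTR1 0.954 and YAP1 0.907. The pairs of CCN1 remained the highest, with a median fold ratio of 1.33. The higher tag ratio at AMOTL2 was thus matched by a higher background around its peaks, and that at CCN1 in part. The lowest local background of the whole lists was 1.104 tags in the TRPS1-WT and 1.768 in the TRPS1-MT library. The narrowest peaks of these lists were 168 and 280 bp wide. What moved the local background was not tested.

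At the shared distal peaks, the shares of summits with a TEAD, an AP-1 or a GATA sequence were within counting error of those over all shared distal peaks. GGAATG, searched on both strands within 100 bp of the TRPS1-WT summit, was present at 19 of 81 such summits (23.5%, 15.6 to 33.8%). It was present at 18.3% of all 37428 shared distal summits, which lies within that interval, and at 14.8% of windows centred 1000 bp to the sides of the 81. CCN1 held the TEAD sequence at 4 of its 9 shared distal summits and the AP-1 sequence at 0. TEAD2 and TEAD4 held neither sequence at their 3 and 1 shared distal summits.

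The AP-1 sequence TGACTCA, also searched on both strands, was at 15 of the 81 summits (18.5%, 11.6 to 28.3%), against 1.85% of the side windows and 22.5% of all shared distal summits. It overlapped the TEAD sequence at neither of the 2 summits that held both. WWTR1 held it at 5 of 21 summits, TEAD1 at 3 of 16 and YAP1 at 3 of 7. Height bears on this share, since that over all shared distal summits went from 9.78% under 20 tags to 42.7% at 100 tags or more. By height, the window summits had an AP-1 share whose interval held that of all summits in every class but that of 50 to 99 tags, where 0 of 13 (0 to 22.8%) held it against 33.8% of all. Among distal peaks of a single list the AP-1 sequence was at 7 of 107 summits in the TRPS1-WT list alone (6.54%, 3.21 to 12.9%), where 5.95% of all such summits held it, and at 9 of 186 in the TRPS1-MT list alone (4.84%, 2.57 to 8.94%), where 4.06% did. The lower share in peaks of a single list held over the whole lists as well. Peaks of a single list were also shorter, with a median of 15 tags in the TRPS1-WT and 18 in the TRPS1-MT library against 43 and 76 for shared ones.

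GATA sequences (GATA with A or T before it and A or G after it, on either strand), the kind of sequence that the zinc finger of TRPS1 recognises, were at 28 of the 81 summits (34.6%, 25.1 to 45.4%), against 25.9% of the side windows and 37.2% of all shared distal summits. In the TRPS1-MT list alone 37.6% (31.0 to 44.8%) of 186 distal summits held one, against 26.9% of their side windows and 40.1% of all distal summits of that list alone. In the TRPS1-WT list alone 29.9% (22.1 to 39.1%) of 107 did, against 30.8% of theirs and 42.4% of all distal summits of that list alone, which lies above the interval. Short sequences of this kind occur often by composition, and a match is a description and not a bound site.

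The rest of the pathway was read from 2 lists of genes outside the 10. Of 20 upstream Hippo genes (kinases, scaffolds and membrane regulators), 19 had a promoter peak in both lists, again beside 62.6% of all protein-coding genes. The exception was DCHS1, a ligand-type protocadherin, with none in either. Here and for the targets below, a gene counted when each list held a promoter peak, whether or not the peaks overlapped. At LATS2 and MOB1B they did not overlap. Ranked by −log10 p in the TRPS1-WT list, the strongest was at FAT1, an atypical cadherin, with 624 tags in the TRPS1-WT and 1079 in the TRPS1-MT library at an alternative TSS. Next came WWC1, a scaffold for LATS, with 372 and 588 tags, also at an alternative TSS, while its canonical promoter had 99 and 75. The third was TAOK3, a kinase upstream of MST, with 160 and 140 tags. These were fewer than at NF2 (196 and 248) and STK3 (176 and 201), both named here after their values were seen. The NF2 values belong to different promoter peaks, which did not overlap each other, so they are not a pair. Each of these NF2 peaks did overlap some peak of the other list. With the canonical TSS alone the count was 16 of 20, beside 48.4% of all genes.

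Of 20 further YAP and TAZ target genes, 17 had a promoter peak in both lists, beside 62.6% of all protein-coding genes. By the same ranking the strongest were ANKRD1, a nuclear ankyrin protein, with 254 and 343 tags, and GADD45A, a stress gene, with 366 and 454. The third was AXL, a receptor tyrosine kinase, with 295 and 215 at an alternative TSS. In the TRPS1-MT list ASAP1, named after its values were seen and with 125 and 337 tags, stood above AXL. At the canonical TSS of AXL there was a peak in the TRPS1-WT list alone, with 98 tags. IGFBP3 (22 tags, at an alternative TSS) and TGFB2 (35 tags, at the canonical TSS) had a promoter peak in the TRPS1-MT list alone. FOXF2 had no promoter peak in either list. With the canonical TSS alone 14 of 20 had a peak in both lists, beside 48.4% of all genes. LATS2 and PTPN14 stand in both lists of genes.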

How the data were processed

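The data were Flag CUT&Tag peak lists of HCT116 cells, 1 library for TRPS1-WT and 1 for TRPS1-MT cells, grouped by the genotype label. After read filtering, the authors used Bowtie 0.12.8 for mapping, MACS for peak calling library by library, and HOMER for annotation. The methods name hg19 and the labels also name hg38, and the last peak of each of 24 chromosomes fitted the GRCh37 length in both lists, so GRCh37 with GENCODE release 44 was used. Whether the caller had a control library is not stated in the methods or labels. The deposited values were a fold (a ratio of summit signal to local background), a −log10 p, a −log10 q and a score for each peak. The layout of the lists is that of MACS2, although the release named in the methods is older, and tags were recovered on the MACS2 model.

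Tags at the summit and the local background were recovered from the fold and −log10 p under that model, to a tolerance of 0.01. No value was recovered for 3 TRPS1-WT and 2 TRPS1-MT peaks, 0 of them in the windows. The step was tested on simulated data. Peaks off chromosomes 1 to 22, X and Y (105 and 142) were left out. Read totals per library are not given in the sources, so depth is unknown, and the narrowest peak was 168 bp in TRPS1-WT and 280 bp in TRPS1-MT cells. Shares have Wilson intervals and tag ratios exact conditional intervals at the 95% level. Fragments are not independent molecules, so these cover counting error only. A TRPS1-WT peak was paired with the strongest TRPS1-MT peak it overlapped, and genes of a list missing from the annotation (PECAM1 among the markers) were not counted. Sequences came from the GRCh37 genome.

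Text names each of the 10 genes with its strongest promoter peaks and its strongest distal peaks by −log10 p, the 3 strongest genes of each further list (by −log10 p in the TRPS1-WT list) and those with a promoter peak in a single list or in none. The genes, lists and rules were chosen with earlier results of these data known. Alternatives were a stricter threshold, equal numbers of strongest peaks, 10 kb windows, a 50% overlap, another promoter width or TSS set, and a 50 bp search. With 1 library per condition no p-value was computed. RNA sequencing and other assays of the study were not analysed here. Tables were handled with pandas 2.3.3 and numpy 2.4.6 in Python 3.11.15, intervals came from scipy 1.17.1, genome reads from pysam 0.24.0, and plots from matplotlib 3.10.9.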

Additional observations from a re-analysis of the deposited data

How the results depend on the processing

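Of 53 values recomputed under the alternatives, 45 stayed within the counting interval or within 1.5 times the count, and 8 did not. With windows of 10 kb on each side the count of peaks was 148 in the TRPS1-WT and 183 in the TRPS1-MT library, since the windows are smaller. With as many TRPS1-MT as TRPS1-WT peaks taken from the top by −log10 p, the TRPS1-MT windows held 206 peaks, fewer than the 232 of TRPS1-WT, so the higher TRPS1-MT count rested on the longer list. The share of TRPS1-WT window peaks that overlapped a TRPS1-MT peak was 54.8% with −log10 p of at least 10 and 27.6% when 50% of the width of each peak had to overlap. Within 50 bp of the summit, a smaller search window, the TEAD sequence was at 9.88%, the AP-1 sequence at 11.1% and a GATA sequence at 14.8% of shared distal summits. The matching shares over all peaks and all shared distal summits are not given under these settings. These overlap and sequence shares therefore have no background to be read against. The median tag ratio ranged from 1.46 to 1.66 over its 4 alternatives, and the count of the 10 genes with a promoter peak from 7 to 8 by the TRPS1-WT list and from 6 to 8 by the TRPS1-MT list. No paired analysis was possible because each condition had 1 library and no result came from a test. The lack of replicates limits every difference between the libraries, and no value says whether the tagged protein changed the expression of any of these genes.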
